A study of Mus musculus with 23 samples.

Results

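The 10 transcripts that are commonly used to recognise macrophages were followed in 2 fractions, endothelial and tumour cells, sorted out of murine breast tumours. They are the named genes Adgre1, Csf1r, Cd68, C1qa, C1qb, C1qc, Mrc1, Cd14, Cd163 and Fcer1g, taken as a list that was drawn up with earlier results of these data known, and all 10 were measured among 19938 genes. Each was read by 1 transcript cluster, a set of array probes that names a single gene. The tumours grew from Py2T, a single murine breast cancer cell line, in a mammary fat pad of female FVB/N mice, and all 6 groups share this line, site, strain and sex. Endothelial cells and tumour cells came from mice that were untreated, that received nintedanib at 50 mg per kg body weight for 7 days (short-term) or that received it for 21 days (long-term). Nintedanib is a small-molecule inhibitor of the VEGF, FGF and PDGF receptor kinases. The untreated tumours had the size of the long-term ones, and none of short-term size served as a control. Each sample was hybridised to 1 array, giving 3 untreated, 3 short-term and 5 long-term endothelial arrays, and 3 untreated, 4 short-term and 5 long-term tumour cell arrays. Samples of a group are labelled as biological replicates, and the labels give neither the ages of the mice nor the antibodies of the sort.

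Macrophages are phagocytes that live in tissues and in tumours, where they clear dying cells, present antigen and release factors that act on vessels. Most depend on the receptor CSF1R, which binds the growth factors CSF1 and IL-34. C1QA, C1QB and C1QC are the chains of C1q, the first component of the classical complement pathway, and macrophages are a main source of it. ADGRE1 is the surface protein F4/80, CD68 is a lysosomal membrane glycoprotein, MRC1 is the mannose receptor and CD163 takes up haptoglobin-bound haemoglobin. CD14 is the co-receptor that hands bacterial lipopolysaccharide to TLR4, and FCER1G is the signalling chain shared by several Fc receptors. Several of these transcripts are not exclusive to macrophages: monocytes, neutrophils and dendritic cells carry some of them, and CD14 and the mannose receptor also occur in some endothelial cells.

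The values are log2 signals, so a difference of 1 is a doubling of the signal. They describe a transcript relative to the rest of its own array. In sorted cells of this kind, fewer cells of a type and less RNA per cell cannot be told apart. Levels of different genes are not set against each other, because each cluster has its own probes. The number of arrays per group limits the precision.

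The mean of the endothelial markers separated the fractions, whereas the mean of the epithelial and tumour markers did not. The mean of 14 endothelial markers ran between 9.87 and 10.43 over the 11 endothelial arrays, against 3.92 to 4.27 over the 12 tumour cell arrays. The mean of 8 epithelial and tumour markers overlapped between the fractions. Long-term endothelial replicate 4 stood apart, with an epithelial mean of 7.89, against 5.29 to 6.46 in the other endothelial arrays and 6.33 to 6.93 in the tumour cell arrays. The main long-term values are also given without it. A mean of 9 pan-leukocyte genes reached 6.85 in the endothelial arrays and was above the tumour cell range, 4.12 to 4.56, in each of them. Lcp1, the gene of the leukocyte plastin and one of the 9, was higher in endothelial than in tumour cells by a like amount in all conditions, 5.21 ± 0.28 untreated, 5.17 ± 0.26 short-term and 5.16 ± 0.22 long-term (SE). Among short-term arrays the differences of the 9 genes between the fractions ran from 0.018 to 5.17, with a median of 0.404. The highest was that of Lcp1. The pan-leukocyte mean was not taken without Lcp1, so its separation in each array was not tested for the rest of the list. A mean of 6 neutrophil genes was highest in short-term endothelial replicate 1, at 5.59, against 3.84 to 5.03 in the other endothelial arrays.

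RefSeq promoter windows (build GRCm38.p6, 250 bases before to 50 bases after the start) were held for 6 of the 10 genes: Cd68, C1qb, C1qc, Mrc1, Cd163 and Fcer1g. Of these, 4 windows are shown. C1qb, C1qc and Cd68 are shown because their levels moved together over the endothelial arrays. Cd163 is shown because its level, low in all arrays, did not move with theirs. Capitals mark the motif GAGGAA, searched on both strands, so that a copy on the other strand reads TTCCTC. It is the core of the sequence bound by the myeloid transcription factor PU.1, the product of Spi1. The C1qb window lies at chr4:136886151-136886450 on the minus strand and the C1qc window at chr4:136892865-136893164 on the minus strand. The Cd68 window lies at chr11:69666121-69666420 on the minus strand and the Cd163 window at chr6:124304401-124304700 on the plus strand.
C1qb: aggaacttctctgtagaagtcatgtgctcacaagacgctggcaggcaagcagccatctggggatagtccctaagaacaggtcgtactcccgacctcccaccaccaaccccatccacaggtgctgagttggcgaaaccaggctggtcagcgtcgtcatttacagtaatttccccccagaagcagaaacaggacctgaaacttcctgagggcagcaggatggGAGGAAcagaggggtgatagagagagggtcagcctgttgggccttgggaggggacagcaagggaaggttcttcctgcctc
C1qc: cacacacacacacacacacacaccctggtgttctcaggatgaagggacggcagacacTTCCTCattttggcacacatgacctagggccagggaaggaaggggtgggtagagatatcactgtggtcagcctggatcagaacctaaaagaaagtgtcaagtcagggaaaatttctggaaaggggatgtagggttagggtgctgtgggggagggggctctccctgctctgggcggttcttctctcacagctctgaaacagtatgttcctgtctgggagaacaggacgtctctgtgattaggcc
Cd68: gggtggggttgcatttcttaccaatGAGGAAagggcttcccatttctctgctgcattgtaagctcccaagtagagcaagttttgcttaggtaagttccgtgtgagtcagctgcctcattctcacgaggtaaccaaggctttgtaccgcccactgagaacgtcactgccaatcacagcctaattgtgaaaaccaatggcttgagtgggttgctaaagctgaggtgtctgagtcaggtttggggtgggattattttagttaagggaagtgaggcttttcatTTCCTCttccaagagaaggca
Cd163: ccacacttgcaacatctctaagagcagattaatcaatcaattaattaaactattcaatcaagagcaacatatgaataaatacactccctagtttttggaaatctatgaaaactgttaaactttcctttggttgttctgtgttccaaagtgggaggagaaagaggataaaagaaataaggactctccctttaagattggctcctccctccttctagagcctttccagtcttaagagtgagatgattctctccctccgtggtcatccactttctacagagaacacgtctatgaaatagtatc
C1qb and C1qc held 1 copy each, Cd68 held 2, Mrc1 held 3, and Cd163 and Fcer1g held none. That is 4 of 6 windows, where 28.3% of all 32851 windows of 300 bases hold at least 1 copy and 4.82% hold 2 or more. A match is a run of letters and was not examined as a binding site.

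Most of the 10 genes were high in the same 3 endothelial arrays, 1 of them untreated and 2 long-term. Their mean reached 7.33 in untreated endothelial replicate 1, 7.40 in long-term replicate 3 and 6.78 in long-term replicate 4. In the other 8 endothelial arrays it lay between 4.57 and 5.80, and in the 12 tumour cell arrays between 4.22 and 4.94. Long-term replicate 3 was among the 3 highest endothelial arrays for 10 of the 10 genes, untreated replicate 1 for 9 and long-term replicate 4 for 7. The highest endothelial value of every gene lay in one of these 3 arrays. The same arrays held the highest pan-leukocyte means, at 6.85 in untreated replicate 1, 6.74 in long-term replicate 3 and 6.09 in long-term replicate 4. Of the endothelial arrays, short-term replicate 1 had the lowest mean both of the macrophage genes and of the pan-leukocyte genes. The endothelial means of the 3 high arrays were 9.87, 10.10 and 10.05, and of the other 8 arrays only short-term replicate 1, at 9.89, was as low. The part of leukocyte RNA in the results was not tested.

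**Figure D1:**
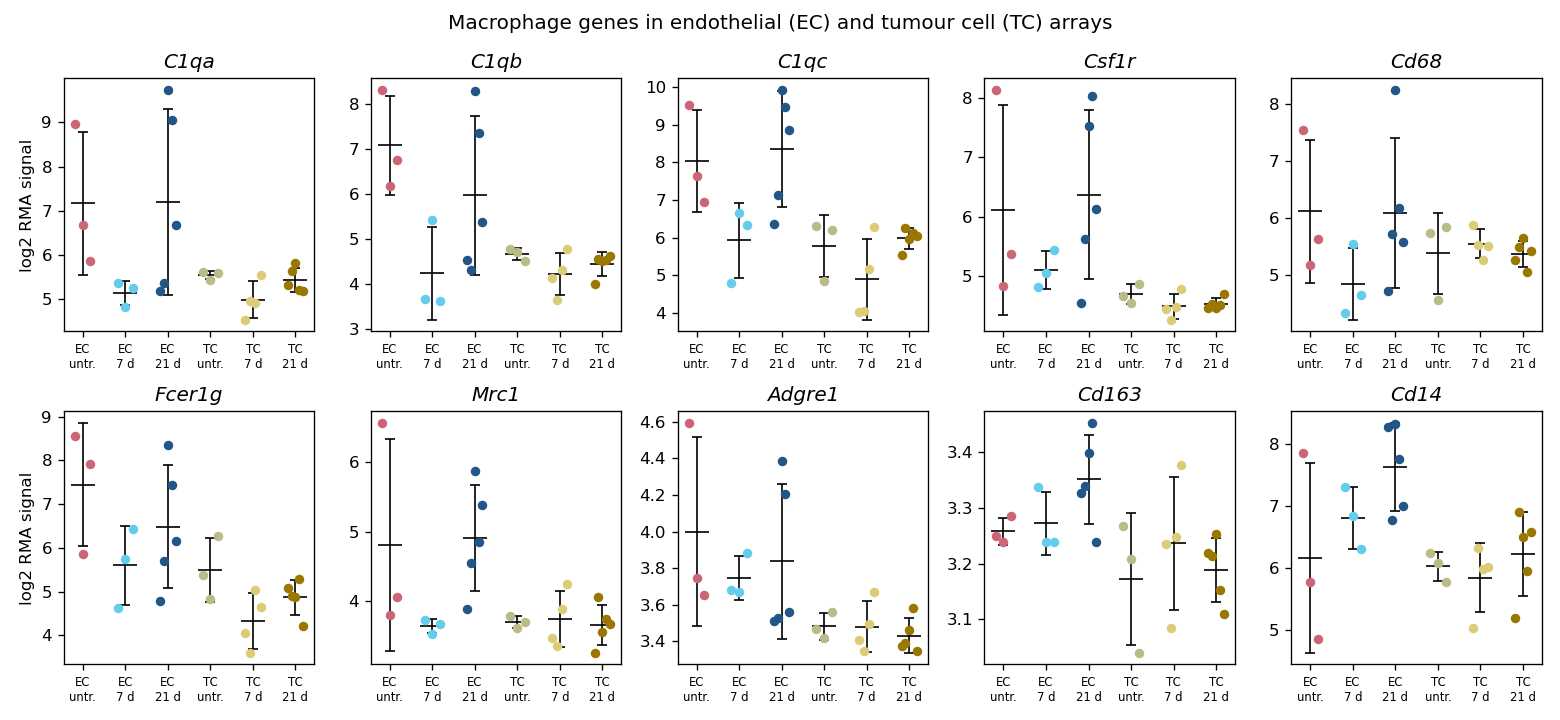
Log2 signal of each of the 10 macrophage genes (1 panel a gene) in every array of the 6 groups, endothelial groups left of tumour cell groups and, within each, untreated, 7 days and 21 days in that order; each point is 1 array and the bars give the group mean and SD. Each panel has its own vertical range. In the endothelial groups C1qa ranges from 4.84 to 9.74, while in the tumour cell groups it ranges from 4.54 to 5.81.

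The 3 complement genes had the largest residual SDs of the list in endothelial arrays. In endothelial arrays C1qa was at 8.97, 6.68 and 5.86 in the untreated group, at 5.36, 4.84 and 5.25 after 7 days, and at 5.19, 5.36, 9.74, 9.05 and 6.68 after 21 days. C1qb was at 8.31, 6.17 and 6.76 untreated, at 3.66, 5.43 and 3.61 after 7 days, and at 4.52, 4.30, 8.29, 7.35 and 5.39 after 21 days. C1qc was at 9.53, 7.64 and 6.94 untreated, at 4.80, 6.65 and 6.33 after 7 days, and at 6.36, 7.12, 9.93, 9.47 and 8.86 after 21 days. For all 3 chains every short-term array lay below every untreated array, while the long-term arrays spanned both, with replicates 3 and 4 high and replicates 1 and 2 low. In tumour cells C1qa was at 5.63, 5.44 and 5.59 untreated, at 4.54, 4.96, 4.93 and 5.56 after 7 days, and at 5.34, 5.63, 5.81, 5.22 and 5.18 after 21 days. Tumour cell values of C1qb lay between 3.65 and 4.77 and those of C1qc between 4.04 and 6.31, so the tumour cell arrays spanned a narrower range than the endothelial arrays for each chain.

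Among the surface receptors, Csf1r in endothelial arrays was at 8.14, 4.84 and 5.37 untreated, at 4.82, 5.05 and 5.45 after 7 days, and at 4.54, 5.62, 7.53, 8.04 and 6.13 after 21 days. Mrc1 was at 6.57, 3.80 and 4.06 untreated, at 3.73, 3.52 and 3.67 after 7 days, and at 3.88, 4.55, 5.87, 4.85 and 5.38 after 21 days. The Csf1r groups overlapped, with a single high untreated array, whereas every Mrc1 value after 7 days lay below every untreated and every long-term one. Adgre1 was at 4.59, 3.75 and 3.65 untreated, at 3.68, 3.67 and 3.88 after 7 days, and at 3.51, 3.52, 4.39, 4.20 and 3.56 after 21 days. Cd163 lay between 3.24 and 3.45 in all 11 endothelial arrays and between 3.04 and 3.38 in the tumour cell arrays. It barely moved anywhere: its residual SD in the endothelial fit was 0.0643, at percentile 0.562 of all genes. Its mean signal lay below the 30th percentile of all genes, where a steady level and a lack of signal cannot be told apart. The mean signal of Adgre1 lay below the 30th percentile too, and that of Mrc1 below the 50th, so their lower values carry a like limit.

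Cd14, like Cd163, did not follow the complement genes closely. It was at 7.84, 5.78 and 4.87 in untreated endothelial arrays, at 7.30, 6.84 and 6.30 after 7 days, and at 8.26, 6.78, 8.32, 7.75 and 7.00 after 21 days. Only untreated replicates 2 and 3 lay below every treated endothelial array. The other 2 members, Cd68 and Fcer1g, followed the complement genes. Cd68 was at 7.53, 5.18 and 5.63 untreated, at 4.34, 5.55 and 4.65 after 7 days, and at 4.72, 5.72, 8.24, 6.17 and 5.59 after 21 days. Fcer1g was at 8.56, 5.86 and 7.91 untreated, at 4.63, 5.74 and 6.42 after 7 days, and at 4.78, 5.71, 8.34, 7.43 and 6.15 after 21 days. Both had overlapping groups.

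**Figure D2:**
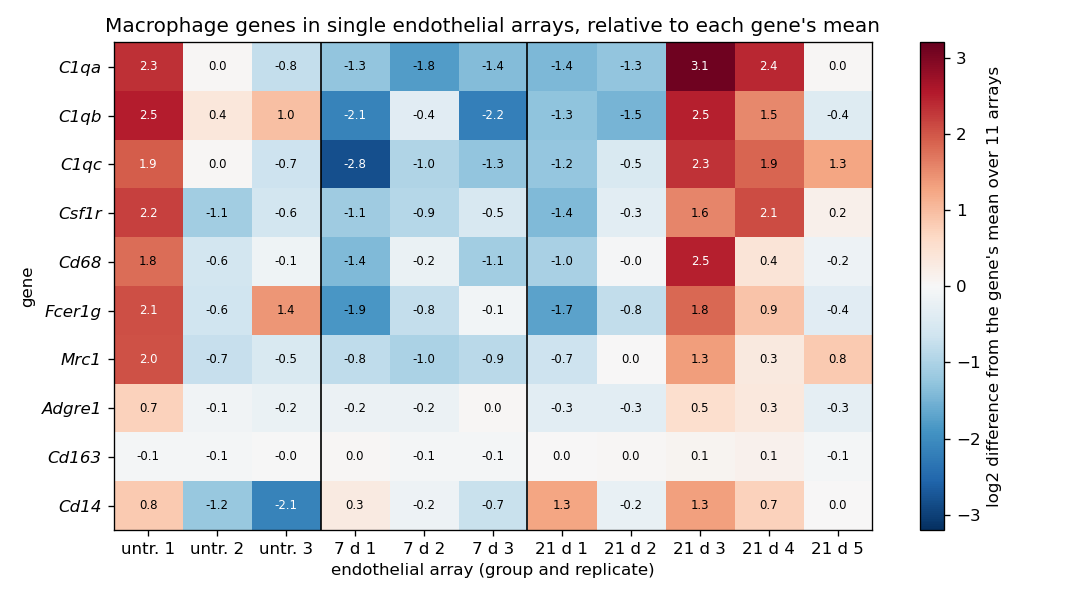
Deviation of each macrophage gene from its own mean over the 11 endothelial arrays (log2 units, colour and printed value), with genes in rows and arrays in columns. Untreated replicate 1 and long-term replicates 3 and 4 are high across most rows, and Cd163 shows almost no deviation.

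The spread between arrays of one group was large for most of these genes. The residual SD of the endothelial fit was 1.69 log2 units for C1qa, 1.46 for C1qb, 1.37 for C1qc and 1.35 for Csf1r, where the median gene had 0.255. Of the 10 genes, 8 lay above the 95th percentile of all genes in residual SD; Adgre1 and Cd163 did not. In the tumour cell fit the median gene had a residual SD of 0.156, and 4 of the 10 lay above the 95th percentile, with 0.754 for C1qc and 0.560 for Cd14.

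The genes varied together over the 11 endothelial arrays. Correlation of each gene with the mean of the other 9 is given as a description, over arrays that also share their treatment groups. It was 0.945 for C1qa, 0.926 for Csf1r, 0.922 for Cd68 and 0.908 for C1qc. Mrc1 (0.875), C1qb (0.871), Adgre1 (0.866) and Fcer1g (0.808) followed, and Cd14 (0.373) and Cd163 (0.366) stood lowest. Between pairs of the first 8 the correlation ran from 0.706 to 0.911, the highest being that of C1qa with Csf1r. The C1qb, C1qc and Cd68 promoter windows printed above belong to this set and the Cd163 window does not. Fcer1g also belongs to it and has no GAGGAA in its window.

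The 10 genes outside the list with the highest correlation with its mean were Cd53, C5ar1, Msr1, Cd52, Rgs1, Ctss, Laptm5, Nckap1l, C3ar1 and Ms4a7, between 0.978 for Cd53 and 0.952 for Ms4a7 over the 11 endothelial arrays. C5ar1 and C3ar1 encode receptors for the complement fragments C5a and C3a, Msr1 encodes a scavenger receptor and Ctss the lysosomal protease cathepsin S. The pan-leukocyte list correlated with the mean of the 10 at 0.974, the endothelial list at -0.482, the epithelial list at 0.438, the neutrophil list at 0.317 and the T cell list at -0.202. Lists of other immune genes went both ways. The monocyte list correlated at 0.949, the MHC class II list at 0.708 and the mast cell list at 0.296. The dendritic cell list had -0.761, the B cell list -0.637 and the NK cell list -0.612. The means of these last lists varied little over the endothelial arrays, from 3.39 to 3.86 for B cells and from 3.28 to 3.59 for NK cells.

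**Figure D3:**
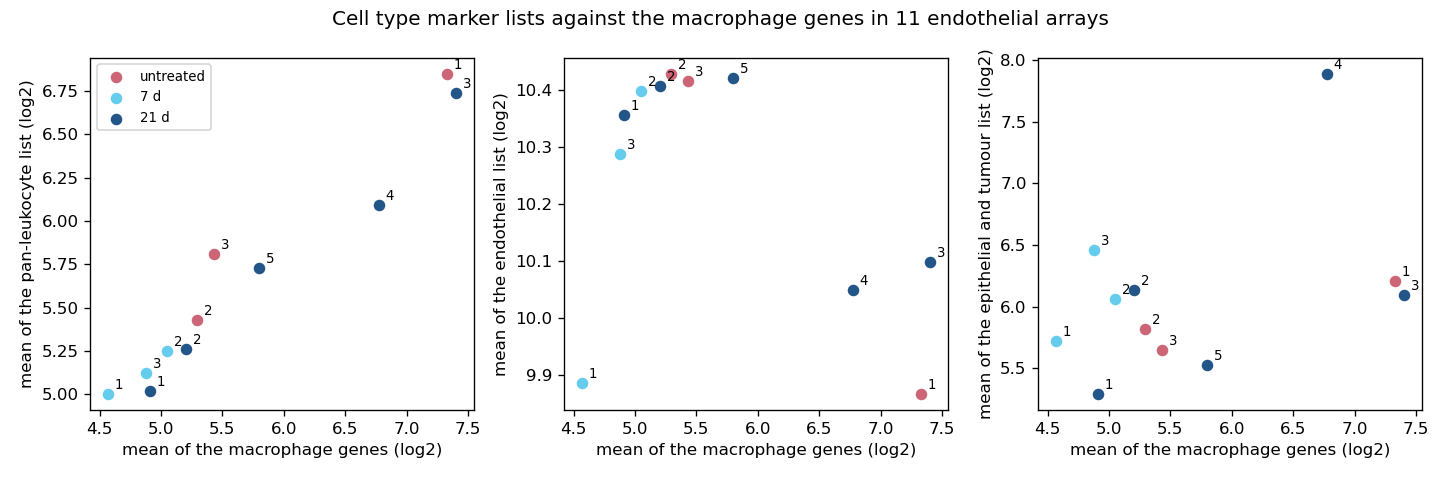
Mean log2 signal of the pan-leukocyte, endothelial, and epithelial and tumour lists (vertical axes) against the mean log2 signal of the 10 macrophage genes (horizontal axes) in the 11 endothelial arrays, coloured by treatment and numbered by replicate. The pan-leukocyte mean goes up with the macrophage mean, and long-term replicate 4 stands alone at 7.89 on the epithelial axis.

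None of the 10 genes passed the test for an effect of nintedanib in endothelial cells. After 7 days against untreated, limma called 0 of 10, as it called 0% of all 19938 genes, at an adjusted p under 0.05. At an unadjusted p under 0.05 it gave 1 of 10, against 8.17% of all genes. That gene was C1qb, with a difference of -2.85 ± 1.06 (SE, adjusted p = 0.595) in limma's fit, from a mean of 4.23 ± 1.03 in short-term and 7.08 ± 1.11 in untreated arrays (SD, n = 3 each). The differences of the other complement chains were -2.11 ± 0.99 for C1qc and -2.02 ± 1.22 for C1qa, and that of Fcer1g was -1.85 ± 0.94. Cd68 (-1.27 ± 0.84), Mrc1 (-1.17 ± 0.68), Csf1r (-1.01 ± 0.98) and Adgre1 (-0.25 ± 0.30) were also below 0, Cd163 was at 0.01 ± 0.10 and Cd14 at 0.65 ± 0.69. Over the list 8 of 10 differences were below 0, against 39.7% of all genes, with a median of -1.22, against 0.06 over all genes. The groups did not overlap for C1qa, C1qb, C1qc and Mrc1, all lower after 7 days, where 3.96% of all genes did not overlap in that direction.

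Untreated endothelial replicate 1 weighed on these values. Without it the median over the 10 genes was -0.42, the Csf1r difference was 0.00, and C1qb, C1qc and C1qa had -2.23, -1.36 and -1.12. Fcer1g then had -1.29, Cd68 -0.56, Mrc1 -0.29 and Adgre1 0.04. Cd14 had 1.49 without it and 0.00 without untreated replicate 3. The mean of 13 isolation stress genes, such as Egr1 and Hspa1a, ran between 8.22 and 8.45 in untreated, between 9.07 and 9.34 in short-term and between 8.88 and 9.68 in long-term endothelial arrays. Its part in these values was not tested.

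After 21 days against untreated, limma again called 0 of 10 genes, and 0% of all genes. At an unadjusted p under 0.05 there was 1 of 10, against 4.18% of all genes, and it was Cd14. Cd14 averaged 7.62 ± 0.71 in long-term arrays (SD, n = 5) and 6.16 ± 1.52 in untreated arrays (SD, n = 3), a difference of 1.46 ± 0.61 (SE, adjusted p = 1.00 in limma's fit). Leaving out single untreated arrays moved it between 2.30, without replicate 1, and 0.81, without replicate 3. Without long-term replicate 4 it was 1.43. C1qb (-1.11 ± 0.95) and Fcer1g (-0.97 ± 0.84) were below 0. The median over the 10 genes was 0.06 against 0.01 over all genes. It was 0.81 without untreated replicate 1, -0.34 without untreated replicate 2 and -0.27 without untreated replicate 3. Leaving out long-term replicates 1 to 5 in turn gave 0.34, 0.14, -0.22, -0.10 and 0.11. The groups overlapped for all 10 genes, where 2.14% of all genes did not overlap and were higher and 1.36% were lower after 21 days.

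After 21 days against 7 days, limma called 0 of 10 genes, and 0% of all genes. At an unadjusted p under 0.05 it gave 1 of 10, C1qc, against 9.4% of all genes. C1qc averaged 8.35 ± 1.54 in long-term arrays (SD, n = 5) and 5.93 ± 0.99 in short-term arrays (SD, n = 3), a difference of 2.42 ± 0.89 (SE, adjusted p = 0.467 in limma's fit). The differences of C1qa (2.05 ± 1.10), C1qb (1.74 ± 0.95), Mrc1 (1.27 ± 0.61), Csf1r (1.26 ± 0.87), Cd68 (1.24 ± 0.75), Fcer1g (0.88 ± 0.84) and Cd14 (0.81 ± 0.61) were also above 0. All 10 differences were above 0, with a median of 1.25, against 42.2% of all genes above 0 and a median of -0.04. Mrc1 alone had groups that did not overlap, higher after 21 days, where 2% of all genes had. Without long-term replicate 4, which stood apart in epithelial markers, C1qc had 2.14 and C1qa 1.59, and without long-term replicate 3 they had 2.02 and 1.42. The median over the 10 genes was 1.03 without replicate 4 and 0.84 without replicate 3. The 3 endothelial comparisons share their arrays pairwise, so they are not separate lines of evidence. Nor are the signs of genes that vary together over these arrays.

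**Figure D4:**
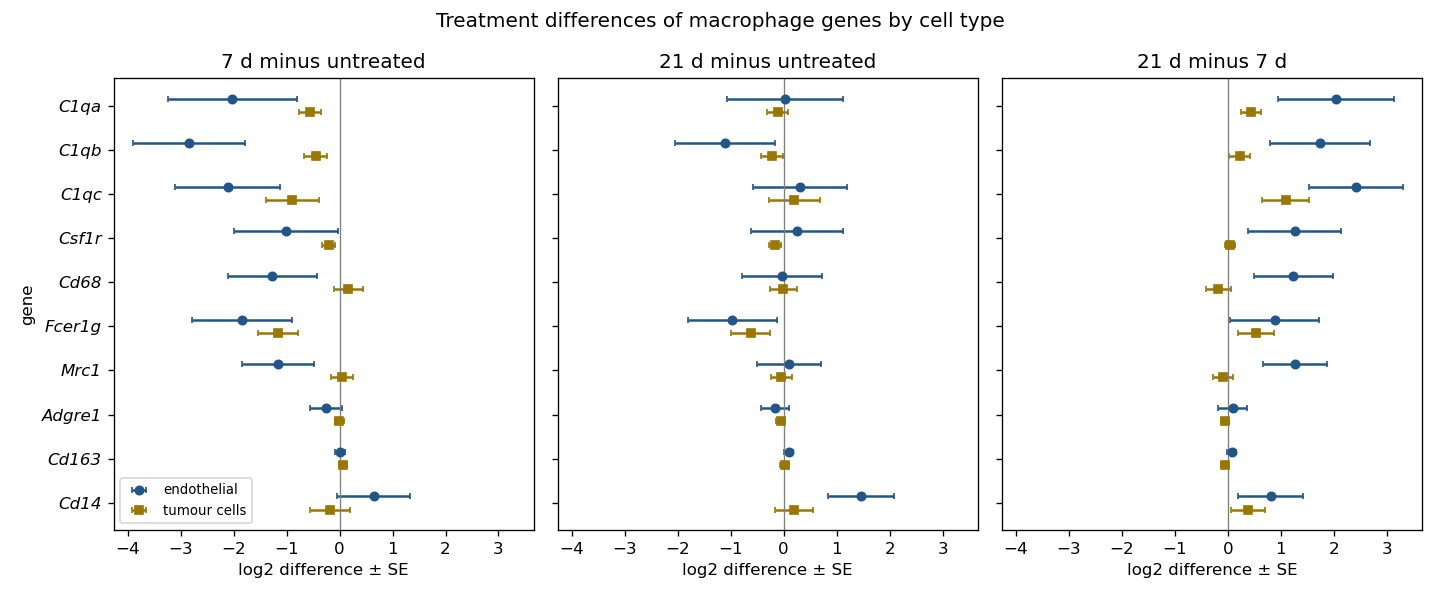
Log2 difference of each macrophage gene in limma's fits for the 3 treatment comparisons, with endothelial and tumour cells drawn apart; points are differences and bars are standard errors. Endothelial bars are long and none of the 10 genes passed the adjusted threshold in any of the comparisons.

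In tumour cells no gene of the 10 was called in any treatment comparison. After 7 days against untreated, limma called 0 of 10, against 0.507% of all genes, and 2 of 10 had an unadjusted p under 0.05, against 11% of all genes. Fcer1g was at 4.04, 3.60, 5.05 and 4.65 after 7 days, against 5.38, 4.84 and 6.27 untreated, with overlapping groups. Its difference was -1.16 ± 0.38 (SE, adjusted p = 0.240 in limma's fit). C1qa had -0.56 ± 0.21 (SE, adjusted p = 0.331), and C1qc and C1qb had -0.89 ± 0.50 and -0.45 ± 0.22. The median over the 10 genes was -0.19. The mean of the 13 isolation stress genes ran between 8.79 and 9.24 in untreated, between 9.59 and 9.98 in short-term and between 9.12 and 9.80 in long-term tumour cell arrays. After 7 days 13 of 13 of their differences were above 0 and 3 were called, led by the heat shock gene Hspa1a with 1.63 ± 0.08 (SE, adjusted p = 3.83e-06). Their part in the values of the macrophage genes was not tested.

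After 21 days against untreated, limma called 0 of 10 genes in tumour cells, against 0.0903% of all genes. At an unadjusted p under 0.05 there were 0 of 10, against 10.1% of all genes, and the median was -0.05. After 21 days against 7 days it called 0 of 10, against 1.22% of all genes, and 2 of 10 had an unadjusted p under 0.05, against 11.9% of all genes. These were C1qc with 1.09 ± 0.44 (SE, adjusted p = 0.334) and C1qa with 0.44 ± 0.18 (SE, adjusted p = 0.362). The 3 tumour cell comparisons share their arrays pairwise too.

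The treatment effect was tested for a difference between endothelial and tumour cells with an interaction term over all 23 arrays. For 7 days against untreated limma called 0 of 10 genes, against 0.0953% of all genes, and 1 of 10 had an unadjusted p under 0.05, against 11% of all genes. That was C1qb, with -2.40 ± 1.08 (SE, adjusted p = 0.426). For 21 days against untreated 0 of 10 were called, against 0% of all genes, and 0 of 10 had an unadjusted p under 0.05, against 5.33%. For 21 days against 7 days 0 of 10 were called, against 0.0351% of all genes. At an unadjusted p under 0.05 it was 1 of 10, Mrc1 with 1.35 ± 0.63 (SE, adjusted p = 0.496), against 9.83% of all genes.

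Endothelial and tumour cell arrays differed in some of these genes, and more of them passed among long-term than among untreated arrays. The untreated comparison had 3 arrays a group and the long-term one 5, and their median differences over the 10 genes were 1.27 and 1.46. Whether the cell type difference itself depended on treatment is what the interaction tests above cover. Among untreated arrays limma called 1 of 10 genes, C1qb, higher in endothelial cells, against 8.18% of all genes, a share near the background. C1qb averaged 7.08 ± 1.11 in endothelial and 4.66 ± 0.13 in tumour cells (SD, n = 3 each). The difference was 2.42 ± 0.79 (SE, adjusted p = 0.0369 in limma's fit). C1qc had 2.25 ± 0.83 (SE, adjusted p = 0.0673), Fcer1g 1.95 ± 0.75 (SE, adjusted p = 0.0802) and C1qa 1.62 ± 0.90 (SE, adjusted p = 0.245). The untreated groups did not overlap for Adgre1, C1qa, C1qb, C1qc and Mrc1, higher in endothelial cells, as for 17.7% of all genes. The C1qb call was lost without untreated endothelial replicate 1 (1.80, adjusted p = 0.171) or 3 (2.58, adjusted p = 0.0573). It was also lost without untreated tumour cell replicate 1 (adjusted p = 0.0813), 2 (adjusted p = 0.0788) or 3 (adjusted p = 0.0958), with differences of 2.47, 2.44 and 2.34 that stayed near that over all arrays. C1qc passed without untreated endothelial replicate 3 or long-term endothelial replicate 1, and Fcer1g without untreated endothelial replicate 2 or long-term endothelial replicate 3.

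Among short-term arrays limma called 0 of 10 genes higher in endothelial cells, against 23% of all genes, and 0 of 10 had an unadjusted p under 0.05 in either direction, against 49.9% of all genes. The differences ran from -0.70 ± 0.61 for Cd68 to 1.26 ± 0.70 for Fcer1g, with a median of 0.21. Among long-term arrays it called 5 of 10 higher, against 15.7% of all genes. C1qc averaged 8.35 ± 1.54 in endothelial and 5.98 ± 0.27 in tumour cells (SD, n = 5 each), a difference of 2.36 ± 0.64 (SE, adjusted p = 0.0084). Csf1r differed by 1.84 ± 0.55 (SE, adjusted p = 0.0156), Mrc1 by 1.26 ± 0.40 (SE, adjusted p = 0.0228), Cd14 by 1.40 ± 0.45 (SE, adjusted p = 0.0241) and Fcer1g by 1.61 ± 0.58 (SE, adjusted p = 0.0407). C1qa (1.77 ± 0.70) and C1qb (1.53 ± 0.61) did not pass, with adjusted p of 0.0601 and 0.0618, nor did Cd163, Adgre1 and Cd68.

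C1qc and Csf1r stayed called under all 31 alternatives, with adjusted p up to 0.0252 and 0.0469. None of these gave each cell type its own spread of a gene, so the calls rest on a spread shared by both. The long-term SD of Csf1r was 1.42 in endothelial and 0.0938 in tumour cells, and its groups overlapped. The other 3 calls were less stable. Without long-term endothelial replicate 3 the differences of Mrc1, Cd14 and Fcer1g were 1.02, 1.22 and 1.15 (adjusted p of 0.0620, 0.0572 and 0.111), leaving 2 of 10 called. Without long-term tumour cell replicate 1 they were 1.16, 1.14 and 1.67 (adjusted p of 0.0517, 0.0696 and 0.0542), again leaving 2. Without long-term endothelial replicate 4, which stood apart in epithelial markers, Fcer1g alone was lost (1.38, adjusted p = 0.0933). Some calls were lost with a difference about as large. Fcer1g had 1.62, 1.61 and 1.45 without long-term tumour cell replicates 2, 3 and 5, and 1.70 without long-term endothelial replicate 5. Cd14 had 1.33 without long-term tumour cell replicate 4 and 1.24 without long-term endothelial replicate 1, and Mrc1 had 1.14 without long-term endothelial replicate 5. Renewed quantile normalization ended the calls of Mrc1 (1.11, adjusted p = 0.0669) and Fcer1g (1.59, adjusted p = 0.0534), and median centring that of Fcer1g (1.53, adjusted p = 0.0527). C1qa passed without untreated endothelial replicate 1 (adjusted p = 0.0417) or long-term endothelial replicate 1 (0.0169) or 2 (0.0218), and C1qb without long-term endothelial replicate 1 (0.0276) or 2 (0.0206). Adgre1 passed without untreated endothelial replicate 1 (0.0356) and Cd163 without long-term endothelial replicate 5 (0.0421). Across the arrays, C1qc lay above all 12 tumour cell arrays in 10 of 11 endothelial arrays, Csf1r in 8, and C1qb and Adgre1 in 7. C1qa and Cd14 did so in 6, Mrc1 and Fcer1g in 5 and Cd163 in 2. Cd68 did so only in untreated replicate 1 and long-term replicates 3 and 4. The like share over all genes was not taken.

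Other genes of the phagocyte programme were read from lists chosen with earlier results of these data known. In endothelial cells after 7 days against untreated, 0 of the 7 measured phagocyte core genes were called, against 0% of all genes. Of their differences 7 of 7 were below 0, against 39.7% of all genes, with a median of -1.40, against 0.06 over all genes. Without untreated replicate 1, whose phagocyte core mean was 7.17 against 5.67 and 5.02 in the other untreated arrays, 6 of 7 were below 0 and the median was -0.65. The lysozyme gene Lyz2 had -3.75 ± 1.17 (SE, adjusted p = 0.549) and Ctss -2.61 ± 0.99 (SE, adjusted p = 0.595). Of 9 pan-leukocyte genes 0 were called and 8 differences were below 0, with Coro1a at -1.58 ± 0.48 and Laptm5 at -2.25 ± 0.90. Their median was -0.63. Without untreated replicate 1 it was -0.37, and 7 of the 9 were below 0. The invariant chain gene Cd74, which serves MHC class II, had -3.34 ± 0.77 (SE, adjusted p = 0.377). It was the lowest of 5 MHC class II genes, of which 4 were below 0, with a median of -0.55. Without untreated replicate 1, 3 of the 5 were below 0 and 2 above. After 21 days against 7 days, 0 of 7 phagocyte core genes were called and 7 of 7 differences were above 0, against 42.2% of all genes, with Lyz2 at 3.99 ± 1.05 (SE, adjusted p = 0.389).

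Between endothelial and tumour cells of long-term tumours, 15.7% of all genes were called higher and 16.3% lower, which is the background for the lists. Of 7 phagocyte core genes 2 were called higher, Spi1 (1.46 ± 0.49, adjusted p = 0.0281) and Ctss (1.78 ± 0.60, adjusted p = 0.0282). Without long-term endothelial replicate 4 both were lost (Spi1 at 1.28, adjusted p = 0.0668, and Ctss at 1.51, adjusted p = 0.0715). Of 8 genes for Fc receptors and their ITAM partners 1 was called higher, a share near the background: Fcgr3 had 0.91 ± 0.34, and 0.89 (adjusted p = 0.0694) without replicate 4. Of 10 scavenger and resident macrophage genes 6 were called higher, and 4 without replicate 4. Stab1, which endothelial cells of some vessels also express, led them with 3.72 ± 0.18, and Ms4a7 had 2.01 ± 0.64.

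Of 7 complement genes 3 were called higher in the same comparison. They were the C1 inhibitor gene Serping1 (1.84 ± 0.45), C5ar1 (1.24 ± 0.39) and C3ar1 (1.33 ± 0.48), the last of which had 1.20 (adjusted p = 0.0843) without replicate 4. The protease gene C1s1 was called lower (-1.34 ± 0.27), 1 of 7 and so near the background. The ligands of CSF1R were lower in endothelial cells, Il34 by -1.80 ± 0.22 (adjusted p = 2.41e-06) and Csf1 by -2.10 ± 0.42 (adjusted p = 0.000632). Without replicate 4, 3 of the 6 recruitment and growth ligands, the list that holds both, were called lower, and 2 of 6 differences were above 0. Among 5 measured genes of the CD14 and TLR4 pathway, Lbp, which carries lipopolysaccharide to CD14, had 1.53 ± 0.34 and was called. Without replicate 4, 2 of these 5 were called higher and 2 differences were below 0.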

How the data were processed

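RNA of sorted cells was measured on 23 Affymetrix arrays. The table deposited by the authors gives a log2 signal for each transcript cluster. RMA and oligo are named in the submitters' processing notes, with versions not given in the sources used here, and the labels list NuGEN amplification kits. RMA makes array distributions equal, so values are relative to the other transcripts of an array. Of 35556 clusters 21789 named 1 gene in the platform annotation, and the cluster with the highest mean was kept per gene, leaving 19938 genes with no filter.

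Tests used limma 3.58.1 in R 4.3.3 (lmFit, eBayes), with 11 endothelial arrays and 12 tumour cell arrays fitted apart, and all 23 together for differences between cell types. P-values were two-sided, adjusted by Benjamini-Hochberg over all 19938 genes within a comparison, and called under 0.05. The fits were tested on simulated data. Promoter windows were taken from RefSeq (GRCm38.p6). The members and the 21 other lists (153 of 162 symbols measured) were chosen with earlier results of these data known. Named genes are all 10 members, up to 4 genes with the smallest p of a list described, and the 10 nearest genes by correlation. The labels do not say whether same-numbered samples share a tumour, and the main fits did not pair them. Deviations from group means correlated over 0.1 in 0 of 11 same-numbered pairs of both cell types, which cannot exclude a shared tumour. Alternatives were other normalization, filters, priors, weights, covariates, a replicate block and leaving out each array.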

Additional observations from a re-analysis of the deposited data

Results flagged for a closer look

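In the 3 groups of 4 or more arrays, 30 combinations of a gene and a group were tested for a single array far from the others. There were 2, where chance gives about 1 in 20, both among the 5 long-term tumour cell arrays. Csf1r stood at 4.69 in replicate 5, against 4.47 to 4.53 in the other 4 arrays. C1qb stood at 3.99 in replicate 1, against 4.50 to 4.63 in the other 4. Groups of 3 arrays were too small for this rule, and the high values of untreated endothelial replicate 1 are given in the report.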

How the results depend on the processing

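In 219 alternative fits of the 9 treatment and cell-type-difference comparisons, 0 of 10 macrophage genes were called in every one, including the fit over all 23 arrays, in which 106, 34 and 262 of all genes were called for endothelial cells at 7 days against untreated, 21 days against untreated and 21 against 7 days. Of 3060 differences of single genes under alternatives, 2907 kept their direction and side of the threshold, 106 changed sign within their errors, 23 gained a call, 24 lost one and 0 called values changed sign. For untreated endothelial against tumour cells the count of 1 became 2 with a filter at the 30th percentile, 3 at the 50th, and 0 to 2 when leaving out single arrays. For long-term arrays the count of 5 became 8 with array weights, 3 after renewed quantile normalization, and 2 to 7 when leaving out single arrays. With the replicate number as a block, the counts were 1, 0 and 4 for untreated, short-term and long-term endothelial against tumour cells, and 0 for the other comparisons; C1qb had adjusted p = 0.0532 and C1qc adjusted p = 0.0435 among untreated arrays, and Cd14 adjusted p = 0.0548 among long-term arrays. The filters left out Adgre1 and Cd163, and the 50th percentile also Mrc1. The cause of these changes was not tested. Groups of 3 to 5 arrays limit what can be seen for genes with a residual SD above 1 log2 unit.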

Other observations

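Genes of other immune cells were read in the same arrays. Between endothelial and tumour cells of long-term tumours, where limma called 15.7% of all genes higher and 16.3% lower, 2 of 8 activation state genes were called higher. They were Nos2, the inducible nitric oxide synthase (2.07 ± 0.26, SE, adjusted p = 4.81e-06), and Il1b (0.69 ± 0.26, adjusted p = 0.0499), and without long-term endothelial replicate 4 Il1b had 0.71 (adjusted p = 0.0607). Of 8 dendritic cell genes 2 were called higher, Zbtb46 (0.82 ± 0.12) and Clec9a (0.61 ± 0.18). Of 6 T cell genes 3 were called higher, Cd3d, Cd3e and Cd2, by 0.23 to 0.24, and Cd8a was called lower (-0.73 ± 0.12). Of 5 MHC class II genes 3 were called higher: Cd74 (2.51 ± 0.53), H2-Aa (1.22 ± 0.36) and H2-Ab1 (0.98 ± 0.30). For neutrophils 1 of 6 genes was called higher, for mast cells 1 of 5, for B cells 0 of 4 and for NK cells 0 of 5, where in each of the last pair 1 gene had an unadjusted p under 0.05.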
